A study of Mus musculus with 12 samples.

Results

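The secreted products of goblet cells were followed through 9 genes chosen by name: Muc2, Fcgbp, Clca1, Zg16, Tff3, Retnlb, Spink4, Agr2 and Spdef. All 9 had a row in both gene count tables, among 18929 genes listed in at least one of them, and all 9 passed the filter on low counts in each comparison. Retnlb, with 2 to 4 counts per control library, passed it only through the mutant libraries, in which it was high. The counts came from RNA-Seq of murine jejunal enteroids, 3-dimensional epithelial cultures grown from crypts and collected after 5 days in ENR medium, which contains EGF, Noggin and R-Spondin 1. The 12 libraries comprised 4 control, 4 Hdac1-deficient (labelled mutant HDAC1-/-) and 4 Hdac2-deficient (labelled mutant HDAC2-/-) enteroid libraries. The mice had a mixed C57BL/6J, 129SV and CD1 background. Deletion of the floxed Hdac1 or Hdac2 alleles relied on Cre driven by the villin promoter, which is active throughout the intestinal epithelium, and the control cultures came from villin-Cre mice, which the methods also call wild-type. The age and sex of the mice were not given in the sources used here. The methods name a single mouse per genotype as the source of crypts, so that p-values measure the spread between libraries, which may be technical, and genotype cannot be told apart from source mouse or culture line.

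HDAC1 and HDAC2 remove acetyl groups from histones and other proteins. Goblet cells are secretory cells of the intestinal epithelium that build the mucus layer. Their main mucin, MUC2, is folded and dimerized in the endoplasmic reticulum, heavily O-glycosylated in the Golgi, packed into granules and released as a gel that carries further goblet cell proteins. ATOH1 commits progenitors to the secretory fate, and SPDEF acts after it to promote goblet and Paneth cell maturation.

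The coding sequences of Retnlb, the product with the largest difference from control, and of Tff3, a product that differed in opposite directions in the mutants, are shown because both encode short cysteine-rich secreted proteins. They were taken from the GENCODE release M21 transcripts of GRCm38, 5′ to 3′, with cysteine codons in capitals. The Retnlb reading frame had 318 bases including the stop codon, spread over a gene of 4 exons at chr16:48816856-48818892 on the plus strand, and encoded 12 cysteines among 105 codons. Bases 145 to 318 of it are printed, which hold 10 of the 12 cysteine codons. The Tff3 reading frame had 246 bases, from a gene of 3 exons at chr17:31125306-31129646 on the minus strand, and encoded 7 cysteines among 81 codons, and it is printed whole.
Retnlb: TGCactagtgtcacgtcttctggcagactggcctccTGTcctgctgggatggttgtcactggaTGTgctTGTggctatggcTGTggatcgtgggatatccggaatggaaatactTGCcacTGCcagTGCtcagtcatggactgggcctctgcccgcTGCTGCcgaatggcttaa
Tff3: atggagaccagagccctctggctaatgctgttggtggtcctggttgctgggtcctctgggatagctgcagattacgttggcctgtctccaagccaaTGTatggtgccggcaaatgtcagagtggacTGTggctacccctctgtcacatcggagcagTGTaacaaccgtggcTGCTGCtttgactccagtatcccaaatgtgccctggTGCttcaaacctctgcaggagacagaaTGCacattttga

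The RefSeq promoter table for GRCm38.p6 matched 4 of the 9 genes, namely Muc2, Fcgbp, Agr2 and Spdef. The 250 bases upstream of the start of Muc2 (chr7:141690090-141690339, plus strand) and of Fcgbp (chr7:28070986-28071235, plus strand) are shown because these genes encode the main structural proteins of the mucus gel and went up and down together among replicate libraries. Capitals mark the letters TATAAA or CAGCTG, searched on both strands. CAGCTG is one form of the wider E-box pattern CANNTG, which it overlaps.
Muc2: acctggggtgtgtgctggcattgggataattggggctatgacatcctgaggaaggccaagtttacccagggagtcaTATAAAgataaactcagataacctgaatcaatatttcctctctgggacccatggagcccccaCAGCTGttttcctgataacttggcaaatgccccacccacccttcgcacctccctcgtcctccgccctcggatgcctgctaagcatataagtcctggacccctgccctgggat
Fcgbp: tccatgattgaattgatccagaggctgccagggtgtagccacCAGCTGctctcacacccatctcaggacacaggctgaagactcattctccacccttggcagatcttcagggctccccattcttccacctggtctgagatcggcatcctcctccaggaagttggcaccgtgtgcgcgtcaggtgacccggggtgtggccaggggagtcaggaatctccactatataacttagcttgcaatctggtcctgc

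Muc2 held 1 TATAAA and 1 CAGCTG, and Fcgbp held 1 CAGCTG. Neither motif occurred in the same window of Agr2 or Spdef. Of 32851 promoter windows of this length, 12.4% held TATAAA, 13% held CAGCTG and 66.2% held CANNTG, so that the matches are a description of these letters alone.

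The deleted genes were examined first. Hdac1 averaged 90.6 ± 2.76 CPM in control enteroids (counts per 1000000 counts of the library, SD, n = 4). It averaged 4.23 ± 0.834 CPM in the Hdac1-deficient and 75.3 ± 4.39 CPM in the Hdac2-deficient group. Hdac2 averaged 137 ± 3.85 CPM in control, 112 ± 3.83 CPM with Hdac1 deleted and 75.9 ± 2.89 CPM with Hdac2 deleted. The Hdac2-deficient libraries thus still held Hdac2 reads, counted over the whole gene, and the position of the deleted exons was not given in the sources used here. Library totals ranged from 20693200 to 30658628 counts, and a floor of 3 counts in a library corresponded to 0.0971 to 0.145 CPM. Epithelial markers were abundant in every library, and the 2 fibroblast markers listed, of 5, summed to at most 0.356 CPM, whereas the 3 immune markers listed, of 6, summed to between 1.25 and 1.96 CPM.

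Both mutants carried more Retnlb, Clca1, Zg16 and Muc2 mRNA than control enteroids. In Hdac1-deficient enteroids these 4 genes rose, Tff3 and Spink4 fell, and Fcgbp, Agr2 and Spdef did not pass the test. In Hdac2-deficient enteroids 8 genes rose and Spdef did not pass. A gene passed where the quasi-likelihood test of edgeR, Benjamini-Hochberg adjusted over all genes tested, gave an adjusted p no larger than 0.05. These counts of 6 and 8 of 9 stand beside high backgrounds, since 64.6% of the 14246 genes tested passed in either direction for Hdac1 and 62.3% of the 14007 genes tested for Hdac2. For higher genes alone, the counts of 4 and 8 stand beside 32.7% and 31.4%. For lower genes alone, the counts of 2 and 0 stand beside 31.9% and 30.9%, and 0 were lower for Hdac2 at an unadjusted edgeR p under 0.05 or by DESeq2 as well. With a change of over 2-fold required as well, 3 of the 9 genes were higher in each mutant (Retnlb, Clca1 and Zg16), beside 6.87% of genes tested for Hdac1 and 5.45% for Hdac2. Mutant and control libraries did not overlap for 6 genes with Hdac1 deleted and for 8 with Hdac2 deleted, beside 58.4% and 56% of genes.

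The median log2 difference of the 9 genes from control was -0.03 for Hdac1 and 0.53 for Hdac2, while the median over all genes tested was 0.00 in both. Both comparisons used the same 4 control libraries. In a bulk culture, more goblet cells and more RNA per goblet cell cannot be told apart.

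**Figure D1:**
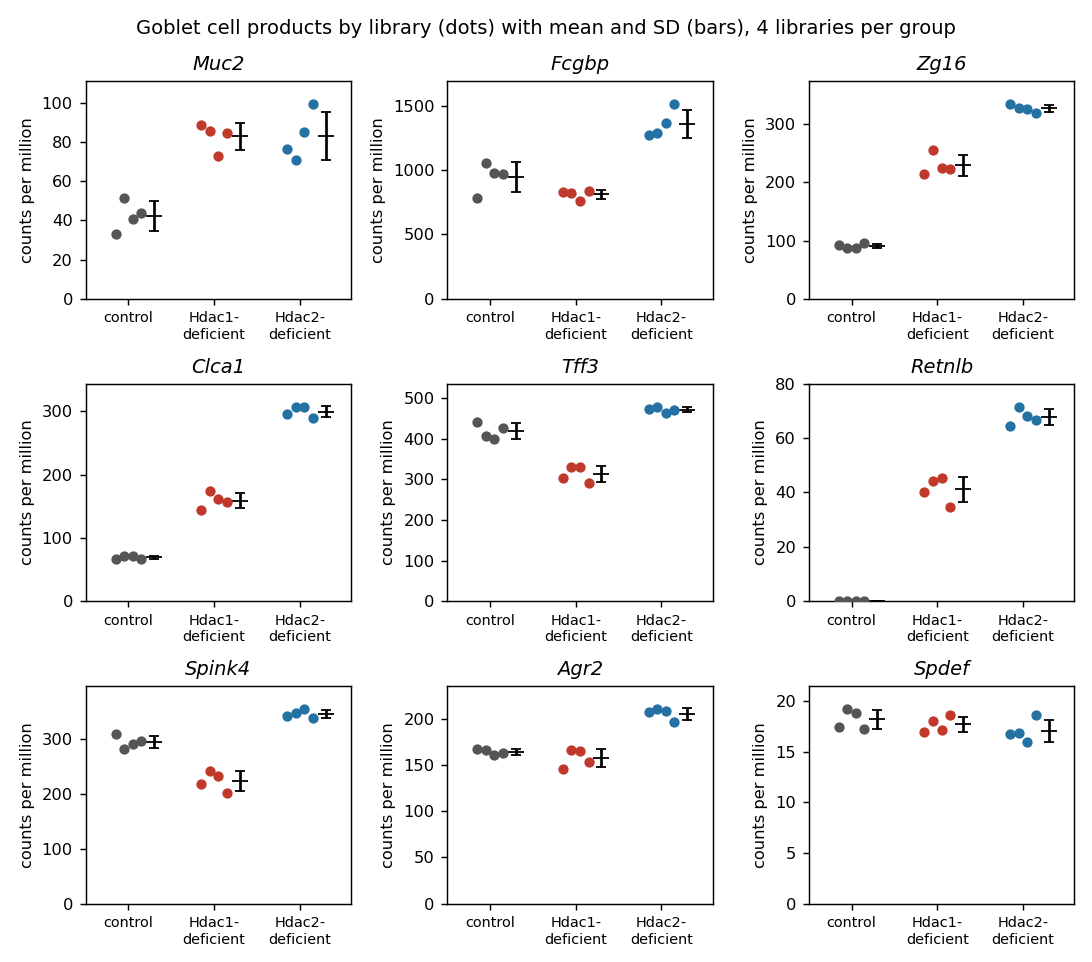
CPM of the 9 goblet cell products in each of the 12 libraries, with 4 libraries per group as dots and the mean with its SD as a bar; each panel has its own axis, starting at 0. Retnlb lies between 0.0835 and 0.134 in the control libraries, Clca1 and Zg16 step up from control to Hdac1-deficient to Hdac2-deficient without overlap, and the 3 groups overlap for Spdef.

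Retnlb encodes resistin-like beta, a small cysteine-rich protein secreted by goblet cells into the lumen, where it acts on bacteria. It was close to absent in control enteroids, in which the 4 libraries held 4, 3, 3 and 2 counts. The Hdac1-deficient libraries held 1069, 1366, 1381 and 961 counts, or 40.1, 44.2, 45.3 and 34.8 CPM. The Hdac2-deficient libraries held 1746, 1830, 1412 and 1540 counts, or 64.4, 71.5, 68.3 and 66.8 CPM. All mutant libraries were far above every control library, and every Hdac2-deficient library was above every Hdac1-deficient library.

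The fitted log2 difference of Retnlb from control was 8.55 ± 0.17 (SE, edgeR adjusted p = 6.7e-18) for Hdac1 and 9.26 ± 0.11 (edgeR adjusted p = 5.7e-24) for Hdac2. Because the control group held only 12 counts in all, the depth-corrected ratio of summed counts has a wide counting interval, 386-fold (95% interval 221 to 748) for Hdac1 and 633-fold (362 to 1226) for Hdac2, and these intervals cover counting error only. By log2 difference Retnlb ranked 6th from the top of 14246 genes for Hdac1 and 3rd of 14007 for Hdac2. It entered these rankings through the mutant libraries alone, since its control counts were below the filter.

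Clca1 encodes a metalloprotease-like protein that is secreted with the mucin and takes part in mucus processing. The gene lies at chr3:145003817-145032776 on the minus strand. Control libraries held 67.0, 71.2, 72.0 and 66.4 CPM. Hdac1-deficient libraries held 144, 174, 161 and 157 CPM. Hdac2-deficient libraries held 295, 307, 306 and 290 CPM. The 3 groups were fully separated, with Hdac2-deficient enteroids highest. Clca1 was 2.33-fold higher than control in Hdac1-deficient enteroids (log2 difference 1.22 ± 0.05 SE, edgeR adjusted p = 2.3e-13) and 4.36-fold higher in Hdac2-deficient enteroids (2.13 ± 0.03, edgeR adjusted p = 1.1e-21). Clca1 belongs to a cluster of similar genes, among which the counting may have split reads.

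Zg16 encodes a lectin-like mucus protein that binds Gram-positive bacteria. Control libraries held 92.5, 86.5, 88.0 and 95.6 CPM. Hdac1-deficient libraries held 215, 256, 224 and 223 CPM. Hdac2-deficient libraries held 334, 328, 326 and 320 CPM. The groups were again fully separated, in the same order as for Clca1. The log2 difference from control was 1.36 ± 0.05 (2.56-fold, edgeR adjusted p = 1.6e-12) for Hdac1 and 1.86 ± 0.03 (3.64-fold, edgeR adjusted p = 9.5e-21) for Hdac2. The annotated span of Zg16, chr7:127050156-127087328 on the minus strand, overlaps the long noncoding RNA Gm44939 and the small nuclear RNA gene Gm22747 on the opposite strand. The library kit kept strand, but the strand setting of the counting was not given in the sources used here.

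Muc2 encodes the gel-forming mucin itself (chr7:141690340-141754693, plus strand). Control libraries held 33.1, 51.3, 40.6 and 44.0 CPM. Hdac1-deficient libraries held 88.8, 85.8, 73.0 and 84.4 CPM. Hdac2-deficient libraries held 76.5, 70.9, 85.0 and 99.2 CPM. Every mutant library was above every control library, while the mutants overlapped each other. Muc2 rose by 0.99 ± 0.13 on the log2 scale for Hdac1 (1.99-fold, edgeR adjusted p = 3.0e-04) and by 0.98 ± 0.16 for Hdac2 (1.98-fold, edgeR adjusted p = 0.0018), just under the 2-fold limit. For Hdac1 the log2 difference passed that limit without control replicate 2 (1.10), control replicate 4 (1.01) or Hdac1-deficient replicate 3 (1.05). For Hdac2 it did so without control replicate 2 (1.09), Hdac2-deficient replicate 1 (1.02) or Hdac2-deficient replicate 2 (1.05).

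Fcgbp encodes the IgG Fc-binding protein, a large mucus protein that associates with MUC2 (chr7:28071236-28120862, plus strand). Control libraries held 782, 1057, 980 and 968 CPM. Hdac1-deficient libraries held 825, 822, 756 and 838 CPM. Hdac2-deficient libraries held 1272, 1289, 1362 and 1509 CPM. All Hdac2-deficient libraries were above all others, and the Hdac1-deficient range overlapped control only through control replicate 1. In Hdac2-deficient enteroids Fcgbp rose 1.44-fold (log2 difference 0.53 ± 0.10, edgeR adjusted p = 0.0037). The Hdac1 difference was -0.21 ± 0.09 (edgeR adjusted p = 0.057), and it passed without control replicate 1 (-0.29, edgeR adjusted p = 5.1e-07).

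Muc2 and Fcgbp varied together within groups. Control replicate 1 lay below its group mean by 0.33 on the log2 scale for Muc2 and 0.27 for Fcgbp, and control replicate 2 lay above it by 0.30 and 0.17. In Hdac2-deficient replicate 4 the deviations were 0.27 for Muc2 and 0.16 for Fcgbp. In control replicate 1 the median deviation of 2771 genes with at least 7000 bases of annotated exon was -0.07, and that of 615 genes under 1000 bases was 0.10. In Hdac2-deficient replicate 4 the corresponding medians were 0.0004 and 0.03. Whether gene length played a part in the spread of Muc2 and Fcgbp was not tested.

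Tff3 encodes trefoil factor 3, a peptide that promotes epithelial repair and is stored with the mucin. Control libraries held 442, 408, 400 and 427 CPM. Hdac1-deficient libraries held 303, 330, 332 and 292 CPM. Hdac2-deficient libraries held 473, 479, 465 and 472 CPM. The Hdac1-deficient libraries were all below, and the Hdac2-deficient libraries all above, the control libraries. Tff3 fell by 0.40 ± 0.04 on the log2 scale in Hdac1-deficient enteroids (0.758-fold, edgeR adjusted p = 2.2e-07) and rose by 0.18 ± 0.03 in Hdac2-deficient enteroids (1.14-fold, edgeR adjusted p = 4.2e-05).

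Spink4 encodes a Kazal-type protease inhibitor homologue of goblet cells (chr4:40920052-40931395, plus strand) and followed the same pattern. Control libraries held 309, 282, 291 and 297 CPM. Hdac1-deficient libraries held 218, 242, 232 and 201 CPM. Hdac2-deficient libraries held 341, 348, 354 and 338 CPM. The 3 groups did not overlap. Spink4 fell by 0.38 ± 0.05 on the log2 scale in Hdac1-deficient enteroids (0.766-fold, edgeR adjusted p = 3.1e-06) and rose by 0.24 ± 0.03 in Hdac2-deficient enteroids (1.18-fold, edgeR adjusted p = 9.5e-07). Tff3 and Spink4 are short, with 493 and 477 bases of annotated exon, and the median log2 difference from control of the short genes under 1000 bases was -0.15 for Hdac1 and -0.12 for Hdac2. The part of gene length in the Tff3 and Spink4 values was not tested.

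Agr2 encodes a protein disulfide isomerase of the endoplasmic reticulum that is needed for MUC2 production (chr12:35992907-36004087, plus strand). Control libraries held 167, 166, 160 and 163 CPM. Hdac1-deficient libraries held 146, 166, 165 and 153 CPM. Hdac2-deficient libraries held 207, 210, 208 and 196 CPM. Hdac1-deficient and control libraries overlapped, and all Hdac2-deficient libraries lay above both. Agr2 rose 1.26-fold in Hdac2-deficient enteroids (log2 difference 0.34 ± 0.03, edgeR adjusted p = 3.2e-09). The Hdac1 difference was -0.04 (95% interval -0.14 to 0.05, edgeR adjusted p = 0.35).

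Spdef, the transcription factor among the 9 genes (chr17:27714352-27728955, minus strand), showed the smallest absolute difference from control of the 9 genes in each mutant. Control libraries held 17.5, 19.2, 18.8 and 17.3 CPM. Hdac1-deficient libraries held 17.0, 18.0, 17.2 and 18.6 CPM. Hdac2-deficient libraries held 16.8, 16.9, 16.0 and 18.6 CPM. The 3 groups overlapped. The log2 difference from control was -0.03 for Hdac1 (95% interval -0.17 to 0.11, edgeR adjusted p = 0.67) and -0.08 for Hdac2 (95% interval -0.23 to 0.06, edgeR adjusted p = 0.23).

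The direct comparison of the mutants used 1 fit of the 12 libraries. Here 7 of the 9 genes were lower with Hdac1 deleted than with Hdac2 deleted and 0 were higher, beside 23.7% of 14510 genes tested that were lower and 22.3% that were higher. No library of one mutant overlapped the other for these 7 genes, beside 41.7% of all genes. An unadjusted edgeR p under 0.05 and DESeq2 also gave 0 higher and 7 lower. Of the 9 differences 0 exceeded 2-fold by edgeR or DESeq2, beside 5.62% of all genes by edgeR, and 5 were lower by over 1.5-fold, beside 6.04% of all genes. The median log2 difference of the 9 genes was -0.59, against 0.01 over all genes tested.

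The largest difference between the mutants was that of Clca1, at -0.91 ± 0.04 on the log2 scale (edgeR adjusted p = 7.1e-14). Fcgbp differed by -0.74 ± 0.09 (edgeR adjusted p = 4.9e-05) and Retnlb by -0.72 ± 0.06 (edgeR adjusted p = 1.6e-09). Spink4, Tff3, Zg16 and Agr2 followed with -0.63, -0.59, -0.51 and -0.38, each with an SE of 0.04. Muc2 and Spdef did not pass, with 95% intervals of -0.30 to 0.31 and -0.08 to 0.19.

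**Figure D2:**
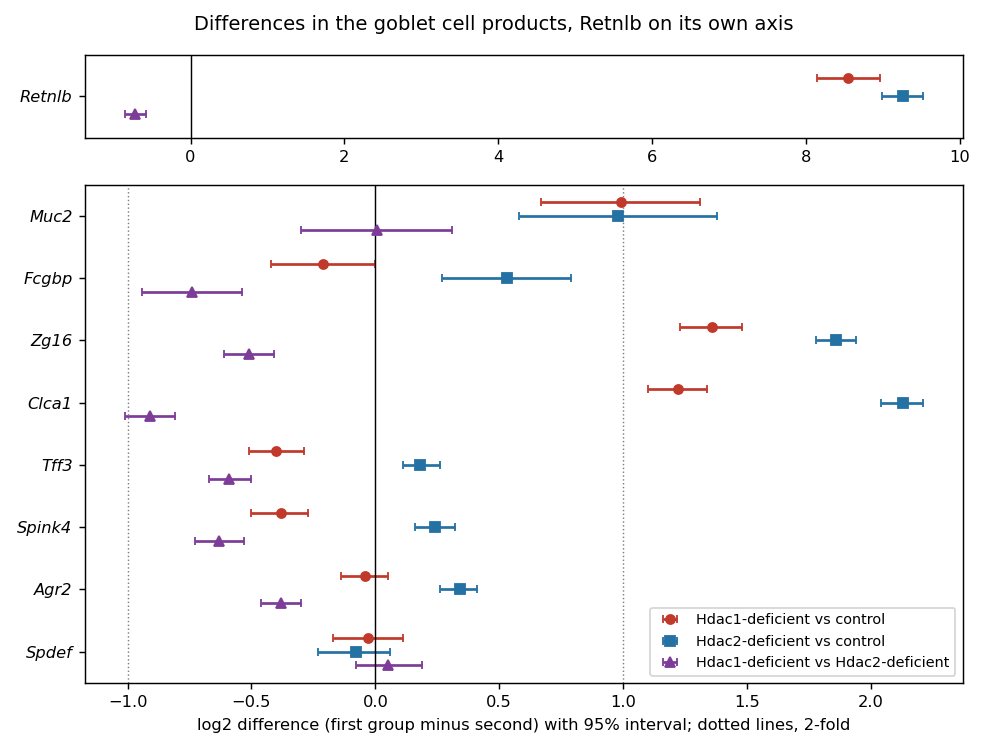
Log2 difference of each goblet cell product between the groups named in the key, first group minus second, as a point with its 95% interval, Retnlb on an axis of its own; dotted lines mark 2-fold. Retnlb, Clca1 and Zg16 lie to the right of 2-fold in both mutants, Tff3 and Spink4 lie on opposite sides of 0 in the mutants, and 7 of the 9 mutant-to-mutant differences lie left of 0.

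Summed over the 9 genes, the control libraries held 1909 to 2141 CPM and the Hdac1-deficient libraries 1997 to 2139 CPM, which overlap, whereas the Hdac2-deficient libraries held 3080.4 to 3309.9 CPM. The sum was 0.191% to 0.214% of counts in control and 0.308% to 0.331% in Hdac2-deficient libraries. Fcgbp, at 947 ± 117 CPM in control enteroids, 810.2 ± 37 CPM with Hdac1 deleted and 1358 ± 108 CPM with Hdac2 deleted, was the largest term of each sum.

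Apart from the sums of CPM, in which longer genes weigh more, levels of different genes were compared per length, as CPM per kilobase of annotated exon. In control enteroids Tff3 was the most abundant product at 850.2 ± 38.7 (SD, n = 4), ahead of Spink4 at 618 ± 23.7 and Agr2 at 127 ± 2.24. Fcgbp at 90.2 ± 11.1 and Zg16 at 72.1 ± 3.31 followed and overlapped each other. Clca1 stood at 18.3 ± 0.751, Spdef at 7.90 ± 0.411, Muc2 at 5.93 ± 1.06 and Retnlb at 0.152 ± 0.0304. The Muc2 value is uncertain, since its annotation holds only 7127 exon bases. All levels depend on the length used, which was every annotated exon base of a gene. The longest annotated transcript is shorter for some genes, at 723 against 1257 bases for Zg16 and 7928 against 10497 for Fcgbp. It is 2926 bases for Muc2. The order of Fcgbp and Zg16, and of Spdef and Muc2, may therefore depend on that choice.

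In both mutants Zg16 took the third place per length, above Agr2, at 183 ± 14.6 with Hdac1 deleted and 260.0 ± 4.72 with Hdac2 deleted. Retnlb moved from last in control to the 6th place in each mutant, above Clca1, at 59.1 ± 6.8 and 97.4 ± 4.28. Tff3 and Spink4 remained the most abundant in every group, and no neighbours in the order overlapped in either mutant.

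**Figure D3:**
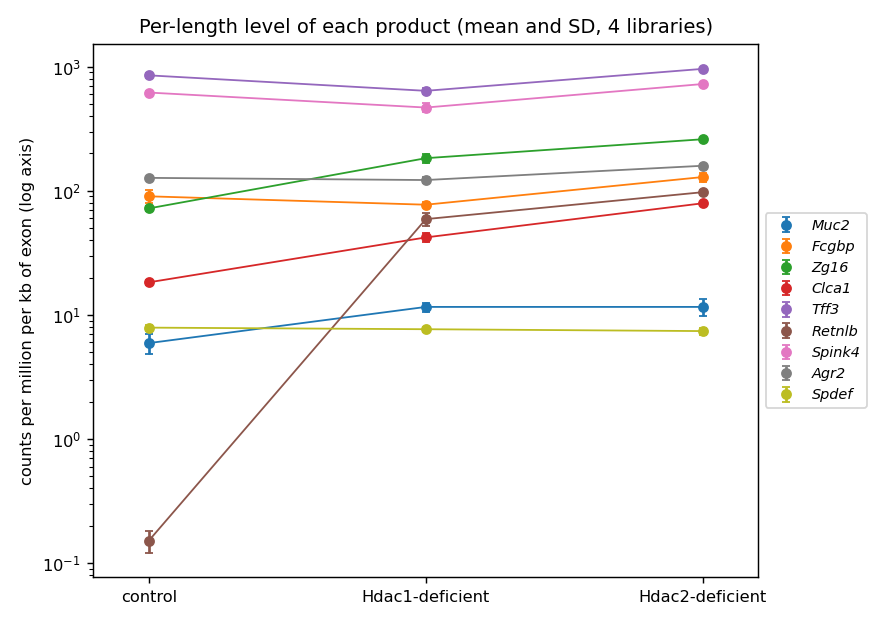
Mean level of each goblet cell product per kilobase of exon in the 3 groups, with the SD over 4 libraries, on a log axis. Retnlb runs from 0.152 in control to 59.1 and 97.4 in the mutants, while Spdef stays between 7.41 and 7.90.

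The genes whose profile over the 12 libraries was most like that of Retnlb were sought among 12388 genes with a mean of at least 1 CPM. The measure was the root mean square distance between log2 CPM values, each relative to its own control mean. A prior count of 2 was added before taking logs. For genes near the floor in control, Retnlb among them, heights and distances depend on that prior. The nearest was Xist, the noncoding RNA of X inactivation, at a distance of 0.774. It averaged 1.57 ± 0.174 CPM in control libraries, 917 ± 130.1 CPM with Hdac1 deleted and 584 ± 83 CPM with Hdac2 deleted. Its order between the mutants was therefore the reverse of that of Retnlb. The sex of the source mice was not given, so a difference in sex cannot be told apart from genotype here. The part of sex in the Xist values was not tested.

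The next were Nos2 (1.09), which encodes inducible nitric oxide synthase, the long noncoding RNA Gm10451 (1.18), the meiotic cohesin gene Rec8 (1.26) and Pm20d1 (1.27), which encodes a secreted peptidase. Nos2 averaged 0.0437, 10.8 and 17.7 CPM in control, Hdac1-deficient and Hdac2-deficient libraries, in the same order as Retnlb. Rec8 averaged 0.0617, 35.8 and 11.4 CPM, in the reverse order between the mutants.

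**Figure D4:**
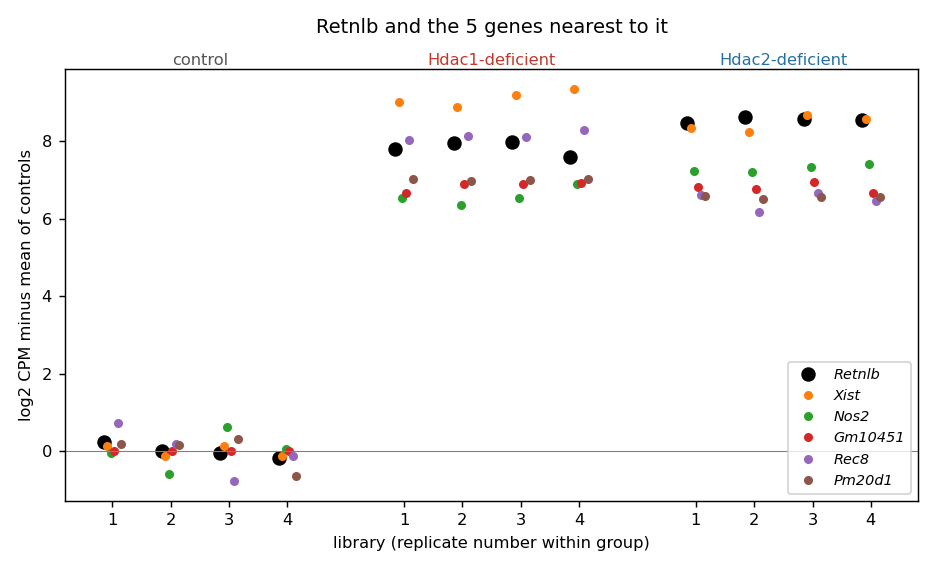
Log2 CPM, with a prior count of 2, of Retnlb and of the 5 genes nearest to it in each of the 12 libraries, relative to each gene's own control mean. The 5 genes were picked for likeness to Retnlb over these same libraries. Their place far above control in the 8 mutant libraries therefore follows from the selection.

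Genes within 100 kb of the 9 products were examined to see whether their neighbours changed as well. Of 28 neighbours tested, 14 rose, 10 fell and 4 did not pass for Hdac1, beside the backgrounds of 32.7% higher and 31.9% lower over all genes, and 13 rose, 11 fell and 4 did not pass for Hdac2, beside 31.4% and 30.9%. In each mutant 3 of the 28 neighbours were over 2-fold higher, beside 6.87% of all genes for Hdac1 and 5.45% for Hdac2. The 1 neighbour over 2-fold lower in each mutant was Pacsin1 near Spdef. Pacsin1, which encodes an endocytic adaptor protein, averaged 0.433 CPM in control, 0.172 CPM with Hdac1 deleted (edgeR adjusted p = 0.002) and 0.166 CPM with Hdac2 deleted (edgeR adjusted p = 0.018), close to the floor of 3 counts in a library. None of the 4 genes annotated near Retnlb was tested, as none passed the filter in either comparison with control. Near Zg16, AI467606 rose from 0.0951 CPM in control to 12.3 CPM with Hdac1 deleted and 10.7 CPM with Hdac2 deleted (edgeR adjusted p = 7.6e-17 and 8.3e-17), whereas Sez6l2 near the same gene did not pass in either. Near Clca1, its relative Clca4a rose by 2.65 and 1.79 on the log2 scale. Near Tff3, the trefoil factor gene Tff1 rose by 1.34 in Hdac2-deficient enteroids, from 0.839 to 2.12 CPM, and was at 0.864 CPM in Hdac1-deficient enteroids (edgeR adjusted p = 0.81). The single gene tested near Muc2, Ap2a2, rose by 0.34 and 0.37. Rps10 near Spdef, which encodes a protein of the small ribosomal subunit, fell by 0.31 and 0.39, and Bag1 near Spink4, which encodes a co-chaperone, fell by 0.37 and 0.17 on the log2 scale.

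Relatives of the 9 products were scarce in these tables, with 11 of 20 listed and 10 tested. The counts for these relatives and for the other gene lists stand beside the share of all genes tested that passed, 32.7% higher and 31.9% lower for Hdac1, 31.4% and 30.9% for Hdac2, and 22.3% and 23.7% between the mutants. Of the 10 relatives, 7 rose and 2 fell for Hdac1, and 5 rose and 1 fell for Hdac2, with medians of 0.30 and 0.14. The gastric and airway mucins Muc5ac, Muc5b, Muc6 and Muc19, as well as Tff2, Retn, Retnla, Retnlg and Spink5, were not among the genes analysed here. Spink1, a pancreatic-type trypsin inhibitor, averaged 18.9 ± 1.43 CPM in control, 75.1 ± 3.48 CPM with Hdac1 deleted and 35.1 ± 3.39 CPM with Hdac2 deleted. Its order between the mutants was opposite to that of Spink4 (log2 difference 1.09 ± 0.06, edgeR adjusted p = 2.9e-13). Agr3, a relative of Agr2, rose from 0.678 ± 0.337 to 1.94 ± 0.245 and 1.15 ± 0.232 CPM. The Hdac2 call for Agr3 (edgeR adjusted p = 0.032) was lost, with an adjusted p of 0.051 to 0.10, when control replicate 2 or 3 or Hdac2-deficient replicate 1, 2 or 4 was left out.

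Of 28 other goblet cell genes, 10 were higher, 11 lower and 7 did not pass in Hdac1-deficient enteroids (median log2 difference -0.06), in either direction close to the background of 32.7% and 31.9%. In Hdac2-deficient enteroids 17 were higher, 5 lower and 6 did not pass (median 0.29). Between the mutants 18 were lower with Hdac1 deleted and 2 were higher (median -0.35). Rep15, a RAB15 effector, averaged 3.58 ± 0.546 CPM in control, 12.6 ± 0.727 CPM with Hdac1 deleted and 7.6 ± 0.369 CPM with Hdac2 deleted. Ramp1, a co-receptor for calcitonin gene-related peptide, was highest in Hdac2-deficient enteroids at 4.27 ± 0.518 CPM, against 1.85 ± 0.354 in control. The actin-severing gene Scin rose in Hdac1-deficient enteroids (log2 difference 1.18 ± 0.04) and fell in Hdac2-deficient enteroids (-0.68 ± 0.03). Galnt12 fell by 0.28 for Hdac1 and was at -0.05 for Hdac2 (edgeR adjusted p = 0.35).

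Among 12 transcription regulators of the secretory and goblet lineages, 2 rose and 6 fell for Hdac1, and 3 rose and 6 fell for Hdac2. Atoh1 stood at 18.3 ± 0.997, 16.8 ± 1.29 and 18.7 ± 1.2 CPM in control, Hdac1-deficient and Hdac2-deficient cultures and passed in neither comparison (edgeR adjusted p = 0.15 and 0.66). Creb3l1, a membrane-bound transcription factor of secretory cells, fell from 78.4 ± 3.69 CPM to 27.8 ± 2.98 CPM with Hdac1 deleted and to 42.1 ± 2.29 CPM with Hdac2 deleted. Foxa1 rose in both, by 0.50 and 0.72 on the log2 scale, whereas Foxa2 (-0.64 and -0.57) and Foxa3 (-0.20 and -0.38) fell in both. Neurog3, the enteroendocrine regulator, fell in both, by 0.54 and 0.89 on the log2 scale.

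Of 20 genes for mucin folding and export, 8 rose and 6 fell for Hdac1 (median 0.08), whereas 14 rose and 1 fell for Hdac2 (median 0.19). Between the mutants 14 of them were lower in Hdac1-deficient enteroids and 1 was higher. Ern2, the goblet cell form of the endoplasmic reticulum stress sensor IRE1, was at 21.7 ± 1.72, 20.6 ± 1.83 and 23.9 ± 1.09 CPM in control, Hdac1-deficient and Hdac2-deficient enteroids. It passed for Hdac2 alone (log2 difference 0.15, edgeR adjusted p = 0.033), and that call was lost under DESeq2 (adjusted p = 0.069), with library size alone (edgeR adjusted p = 0.095), with all 12 libraries in 1 fit (0.06), and without control replicate 1 (0.14) or 4 (0.071) or Hdac2-deficient replicate 2 (0.075) or 3 (0.10). Its relative Ern1 rose by 1.08 and 0.58 on the log2 scale. Qsox1, a sulfhydryl oxidase, rose by 0.21 for Hdac1 and 0.87 for Hdac2.

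The 16 genes tested for mucin O-glycosylation were evenly split for Hdac1, with 6 higher and 6 lower, and 8 were higher and 4 lower for Hdac2. Fut2, the fucosyltransferase that adds terminal fucose, rose by 0.54 and 1.09 on the log2 scale. The N-acetylgalactosaminyltransferase gene Galnt4 fell from 235 ± 6.14 CPM to 137 ± 4.03 and 151 ± 3.57 CPM. Of 9 genes for mucus processing and ion transport, 5 rose and 2 fell in each mutant. Mep1a and Mep1b, the subunits of the meprins that cleave MUC2 from the epithelium, rose by 2.21 and 1.51 on the log2 scale for Hdac1 and by 1.59 and 1.63 for Hdac2. The meprins are also enterocyte proteins.

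Markers of other cell types moved with the groups as well. All 10 enterocyte markers rose in both mutants, and their summed level ranged from 9290.1 to 9835 CPM in control, 18182 to 20672 CPM with Hdac1 deleted and 14446 to 16279 CPM with Hdac2 deleted. Lct, the lactase gene, rose by 2.86 and 2.03 on the log2 scale. Paneth cell markers summed to 2246 to 2609, 3343 to 3638 and 3633 to 3798 CPM, with 4 higher and 2 lower of 10 tested for Hdac1 and 6 higher and 1 lower for Hdac2. Lyz1, which encodes Paneth cell lysozyme, rose by 1.26 and 1.16 on the log2 scale. Nupr1 fell by 0.80 and 0.23, and Ang4, which encodes an antimicrobial angiogenin, fell by 0.63 for Hdac1 and rose by 0.18 for Hdac2.

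Enteroendocrine markers summed to 247 to 255, 312 to 359.8 and 311 to 338 CPM, with 8 higher and 0 lower of 10 tested for Hdac1 and 6 higher and 1 lower of 9 for Hdac2. Gcg, the glucagon gene, rose by 3.76 and 2.95 on the log2 scale. Chga, which encodes chromogranin A, rose by 0.14 for Hdac1 and fell by 0.18 for Hdac2. Stem cell markers summed to 3598 to 3794, 2032 to 2371 and 1703 to 1900.2 CPM, with 5 lower and 1 higher of 7 for Hdac1 and 6 lower and 1 higher for Hdac2. The gene that was higher in both was Tnfrsf19, which rose 2.43-fold and 2.11-fold from 1.53 CPM in control. Olfm4 was the largest term of each stem cell sum, at 2705, 1519 and 1147 CPM in control, Hdac1-deficient and Hdac2-deficient libraries. Ascl2, at 41.9, 23.8 and 30.6 CPM, had the opposite order between the mutants. Of the 7 genes, 4 were higher and 1 lower with Hdac1 deleted than with Hdac2 deleted. Of 8 proliferation markers 6 fell and 1 rose in each mutant. Tuft cell markers summed to under 10 CPM in every library. The part of these cell type markers in the values of the goblet cell products was not tested.

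**Figure D5:**
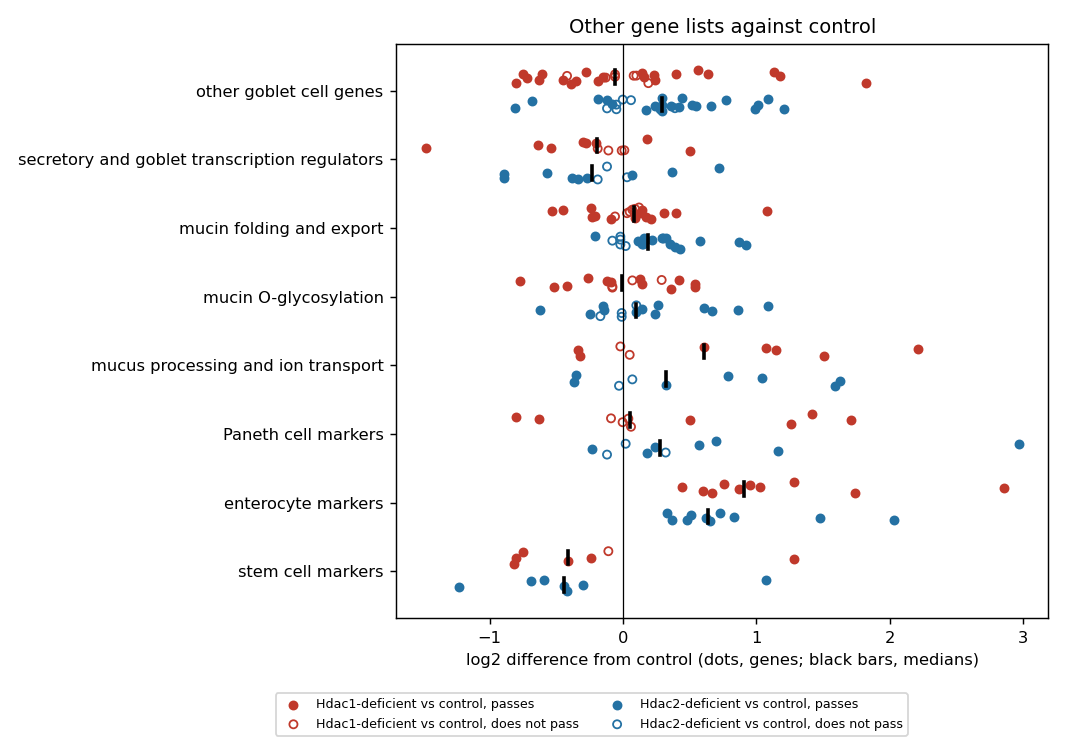
Log2 difference from control of each tested gene in 8 lists, Hdac1-deficient in red and Hdac2-deficient in blue, filled where the adjusted p was at most 0.05, with list medians as black bars; the dots are spread vertically at random within a row. The median of the 28 other goblet cell genes is -0.06 for Hdac1 and 0.29 for Hdac2, and all 10 enterocyte markers lie right of 0.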

How the data were processed

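The deposited tables held raw read counts per gene, not normalized, for 4 control and 4 Hdac1-deficient or 4 Hdac2-deficient libraries, with identical control values in both. The labels describe poly(A) selection, a directional NEBNext kit and paired HiSeq reads. The submitters' processing notes name STAR 2.4.0f1, bcl2fastq 1.8.4 and GRCm38; the counting program was not given in the sources used here. The deposited normalized columns are scores made by the authors and were not used, nor were their fold changes and p-values. All listed genes had at least 10 counts over the libraries of their table.

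Each mutant was compared with control, and the mutants with each other (12 libraries, genes of both tables), with edgeR 4.0.16 in R 4.3.3 (quasi-likelihood F test, robust, TMM factors, filterByExpr, Benjamini-Hochberg adjustment, threshold 0.05, with and without a 2-fold limit). In simulated data 200 genes were changed by 3-fold among 14246, 14007 and 14510 genes. Of these, 97%, 98.5% and 99.5% were recovered for Hdac1, Hdac2 and the mutants against each other. The simulation gave all genes the same relative spread between libraries and left all other genes unchanged. These shares therefore do not cover smaller changes or genes with a wider spread. CPM used TMM library sizes, and 95% intervals of log2 differences used 6 residual degrees of freedom (9 between the mutants). Annotation was GENCODE M21, which matched 18817 of 18929 IDs. Alternatives used DESeq2 1.42.0, other size factors, filters, thresholds, a replicate block and leaving out each library. No replicate pair was alike enough to be 1 library (chi-square per degree of freedom 1.52 to 8.18).

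The genes and lists were chosen with earlier results of these data known. Named genes were the 9 products, up to 3 passing genes per other list with the largest difference and at least 1 CPM, 7 fixed genes (Atoh1, Creb3l1, Ern2, Galnt12, Lyz1, Hdac1, Hdac2) and the 5 profiles nearest to Retnlb. Neighbouring genes, Ang4, Nupr1, Chga, Foxa2 and Foxa3 were named after their values were seen.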

Additional observations from a re-analysis of the deposited data

Results flagged for a closer look

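Of the 9 goblet cell products, 7 differed between the mutants by a test of the difference itself. All 7 were lower with Hdac1 deleted, beside 23.7% of the 14510 genes tested that were lower and 22.3% that were higher. The log2 differences, Hdac1-deficient minus Hdac2-deficient, were -0.91 for Clca1, -0.74 for Fcgbp, -0.72 for Retnlb and -0.63 for Spink4. They were -0.59 for Tff3, -0.51 for Zg16 and -0.38 for Agr2. For each, every Hdac1-deficient library lay below every Hdac2-deficient library, beside 41.7% of all genes without overlap in either direction.

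Among the other genes named, 8 differed by over 2-fold between the mutants, beside 5.62% of 14510 genes tested. Many of these genes were named for large differences from control or after their values were seen, and Hdac1 was itself deleted. The count therefore reflects how the genes were picked. Scin (1.86), Rec8 (1.66), Mptx1 (1.53), Spink1 (1.09) and Pou2f3 (1.01) were higher in Hdac1-deficient enteroids. Mptx2 (-1.26), Tff1 (-1.29) and Hdac1 itself (-4.15) were lower.

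A single library stood apart from the other 3 of its group in 5 cases, and chance gives such a gap in about 1 in 20 groups. Many genes were screened in each group, and the 5 cases were not shown to exceed that rate. Mep1a was highest in one Hdac2-deficient library, at 47.5 CPM, and Apoa1 in one Hdac1-deficient library, at 2565 CPM. Gcg was lowest in one Hdac2-deficient library, at 13.3 CPM, and Hdac1 in one Hdac2-deficient library, at 68.8 CPM. Ap2a2 was lowest in one control library, at 190.5 CPM. None of the 9 goblet cell products had such a library.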

How the results depend on the processing

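Over the alternatives tried, 460 of 468 values of single goblet cell products kept their direction and their side of the adjusted p threshold. Crossing the 2-fold limit was not counted here, and Muc2 crossed it when some single libraries were left out. Without a fold limit, 2 products were called lower for Hdac1, beside 31.9% of all genes tested, and 8 higher for Hdac2, beside 31.4%. Without it, 7 were lower with Hdac1 deleted than with Hdac2 deleted, beside 23.7%. With a limit of 1.5-fold, 5 were lower in that last comparison, beside 6.04% of all genes tested. Leaving out each library gave 3 to 4 products called higher per mutant, beside 6.87% (Hdac1) and 5.45% (Hdac2) of genes with none left out. The Muc2 difference between the mutants, close to 0, changed sign in 5 of these (-0.06, -0.03, -0.03, -0.004 and -0.002) and ranged from -0.06 to 0.10. Ern2 for Hdac1 changed sign without Hdac1-deficient replicate 2 (0.004) and ranged from -0.12 to 0.004.

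Correlations of the deviations of same-numbered libraries ranged from -0.31 to 0.26. Those of differently numbered libraries were not set beside them, so whether the replicate numbers pair the libraries was not settled. With the replicate block, 3 products were called higher in each mutant, beside 6.87% (Hdac1) and 5.45% (Hdac2) of genes without it. The Fcgbp difference for Hdac1 passed with the block (-0.20, edgeR adjusted p = 0.022), as it did with all 12 libraries in 1 fit (-0.22, edgeR adjusted p = 0.048). The cause was not tested. Control counts of 2 to 4 limit the precision of the Retnlb ratios.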
